A study of Mus musculus with 4 samples.

Results

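The genes that encode the m6A writers and their adaptors are described here in islets of newborn mice. They were taken by symbol from the deposited table of transcript levels: Mettl3, Mettl14, Wtap, Zc3h13, Cbll1, Rbm15, Rbm15b and Mettl16, 8 of 22481 gene symbols. The 8 symbols fill 9 of the 22564 rows, since Rbm15b stands on 2 rows. RNA of pancreatic islets, clusters of hormone-secreting cells in the pancreas, was sequenced at postnatal day 0 in mice of strain 129sv. Of 4 libraries, 2 were labelled Mettl3/14nKO and 2 wild-type, and no treatment is named for either group. The sources used here do not say what the "n" in nKO stands for, which promoter or cell type drives the deletion, which exons it removes, how many animals were pooled, or whether each library stands for its own animal. P-values here measure no more than the spread between these libraries, and that spread may be technical.

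The mark m6A (N6-methyladenosine) is a methyl group on the base adenosine, and it is the most common internal modification of messenger RNA. It is written while RNA is made in the nucleus, and its later readers change how long a transcript lasts, how it is spliced and how well it is translated. METTL3 carries out the methyl transfer, METTL14 holds the RNA beside it, and the pair is placed on its targets by a larger adaptor complex. METTL16 works apart from that complex and methylates U6 small nuclear RNA and hairpins in the Mat2a transcript. Nothing in the table measures methylation: the values below are transcript levels only.

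The 3 methyltransferase genes are shown by the coding sequence around the 4 codons that mark their catalytic fold, because these codons set the members apart: the catalytic DPPW motif in METTL3, the EPPL motif at the matching place in METTL14, which does not transfer the methyl group, and the catalytic NPPF motif in METTL16, roles known from the human proteins. Capitals mark the motif codons, the sequences run 5′ to 3′ on the coding strand, and all come from GENCODE M21 transcripts (mm10).
Mettl3: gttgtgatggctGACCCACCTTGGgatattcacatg
Mettl14: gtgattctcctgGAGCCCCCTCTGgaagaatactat
Mettl16: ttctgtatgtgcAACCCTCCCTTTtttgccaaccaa
The Mettl3 stretch lies in exon 6 of 11 at chr14:52297569-52297604 on the minus strand, the Mettl14 stretch in exon 7 of 11 at chr3:123374793-123374828 on the minus strand, and the Mettl16 stretch in exon 5 of 11 at chr11:74792271-74792306 on the plus strand. The deposited values are summed over each gene, so they do not show whether these or any other codons were missing from the transcripts of the Mettl3/14nKO libraries.

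The libraries held 744015 to 1617429 fragments in genes, a shallow depth at which the 8 genes together had 605 and 397 fragments in replicates 1 and 2 of Mettl3/14nKO, against 695 and 861 in those of wild-type. A fragment is here the deposited estimated count divided by the step of its library and rounded. Normalised CPM is the fragment count scaled to the library total with a TMM factor, and FPKM is the authors' level per kilobase of transcript. Islet identity was clear from the endocrine markers, with Ins2 at 17000 to 64845 fragments and Gcg at 9666 to 12457, while markers of other cell types differed between the groups. In these marker counts "rose" and "fell" mean an adjusted p under 0.05 with edgeR's quasi-likelihood test, which 2.1% of all genes tested passed as higher and 1.61% as lower in Mettl3/14nKO. Summed normalised CPM of 13 endocrine markers was 55152 and 70420 in Mettl3/14nKO against 93438 and 94453 in wild-type (4 fell, 0 rose), and of 15 endothelial markers 535 and 365 against 1419 and 1183 (7 fell, 0 rose). The endocrine markers that fell were Ins1, Ins2, Iapp and Ppy, and Ins1 and Ins2 had the most fragments of the 13 in every library. Of the 13, 10 had a log2 fold change below 0, while Gcg (0.41), Isl1 (0.26) and Sst (0.04) were above 0 without passing. For 15 leukocyte markers the sums were 405 and 722 against 66.5 and 150 (7 rose, 0 fell), and for 14 mesenchymal markers 13087 and 9435 against 6268 and 4469 (10 rose, 0 fell). Acinar markers summed to 35.7 to 73.2 (2 of 11 tested, 0 passed), ductal markers to 693 to 934 (1 rose and 2 fell of 6 tested), erythroid markers to 38.2 to 203 (1 fell of 2 tested) and Schwann and neural markers to 56.7 to 78.7 (1 rose of 3 tested). At least 1 library had no fragment of the acinar markers Cpa1, Cela2a, Cela3b, Pnlip, Amy2a5 and Ptf1a, the ductal marker Cftr, the erythroid marker Hbb-bt, the leukocyte marker S100a8, and S100b of the Schwann list. In bulk islets fewer cells of a type and less RNA per cell cannot be told apart, and the part of these cell types in the writer levels was not tested.

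None of the 8 genes changed between the genotypes by edgeR's quasi-likelihood test with p-values adjusted (Benjamini-Hochberg) over the 10956 genes tested, against 3.71% of all genes tested (2.1% higher and 1.61% lower in Mettl3/14nKO), and the smallest adjusted p among them was 0.298. DESeq2 and limma also called 0 of the 8, where they called 0.977% and 0% of all genes they tested. At an unadjusted edgeR p under 0.05 there were 2, Mettl14 and Mettl16, both with a negative log2 fold change, where 7.79% of all genes tested were lower at that level. With limma on log2(FPKM + 1) Mettl14 alone was lower at an unadjusted p under 0.05, as were 9.47% of all genes. The median edgeR log2 fold change of the 8 was -0.19, with 5 below 0, beside a median of 0.00 for all genes tested, 49.6% of which were below 0. Summed over the 8 genes, normalised CPM was 491 and 538 in Mettl3/14nKO against 557 and 531 in wild-type, so that the groups overlapped. In normalised CPM 3 of the 8 were below both wild-type libraries in each Mettl3/14nKO library (Mettl14, Wtap and Mettl16), as were 22.9% of all genes tested, and 1 was higher in both (Rbm15), as were 22.3%.

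**Figure D1:**
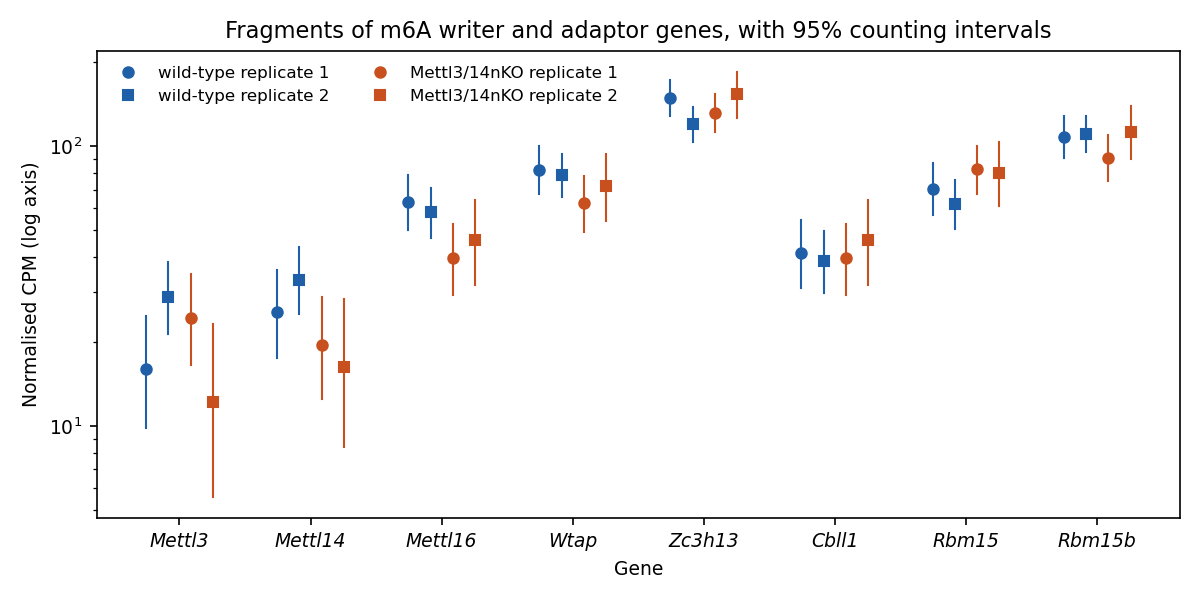
Normalised CPM (fragments scaled to the library total with a TMM factor, log axis) of the 8 genes in each library, blue for wild-type and orange for Mettl3/14nKO, circles for replicate 1 and squares for replicate 2, with bars for the exact 95% Poisson interval, which covers counting error only. Mettl3 spans 12.2 to 29.0 with the groups interleaved, while all Mettl14 points of Mettl3/14nKO lie below those of wild-type.

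Mettl3, which encodes the catalytic subunit, had libraries of both genotypes interleaved in fragments and normalised CPM and did not pass the test. Its row (ENSMUSG00000022160, in GENCODE M21 at mm10 chr14:52294841-52305128, minus strand) held 30 and 9 fragments in replicates 1 and 2 of Mettl3/14nKO. In replicates 1 and 2 of wild-type it held 20 and 47. In normalised CPM these were 24.4 and 12.2 (mean 18.3 ± 8.60, SD, n = 2) against 16.0 and 29.0 (mean 22.5 ± 9.17, SD, n = 2). The order of the libraries was thus wild-type replicate 2, Mettl3/14nKO replicate 1, wild-type replicate 1 and Mettl3/14nKO replicate 2, and each genotype had a high and a low library. The exact Poisson intervals of the wild-type libraries, 9.79 to 24.7 and 21.3 to 38.5 CPM, overlapped. With edgeR the log2 fold change came to -0.25 (SE 0.40, adjusted p = 0.849), and its 95% interval ran from 0.460-fold to 1.54-fold of the wild-type level. The direction depended on single libraries: leaving out replicate 2 of Mettl3/14nKO gave 0.08 and replicate 2 of wild-type 0.26, while leaving out replicate 1 of either genotype gave -0.91 and -0.59, and none of these passed (the lone library of a genotype is then assumed to vary like the other genotype). A fall in whole-islet Mettl3 RNA of up to 54.0% lies within the edgeR interval, as does a gain. In FPKM the Mettl3/14nKO libraries (6.95 and 5.86) were both below the wild-type libraries (8.40 and 14.5), as were 36.7% of all genes tested. The limma log2 fold change on log2(FPKM + 1) was -0.71 (SE 0.32, adjusted p = 0.434).

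Mettl14, the RNA-binding partner of METTL3, was lower in both Mettl3/14nKO libraries but did not pass the test. Its row (ENSMUSG00000028114, in GENCODE M21 at chr3:123368297-123386108, minus strand) had 24 and 12 fragments in Mettl3/14nKO, against 32 and 54 in wild-type. In normalised CPM these were 19.5 and 16.3 (mean 17.9 ± 2.27, SD, n = 2) against 25.6 and 33.3 (mean 29.5 ± 5.42, SD, n = 2). Both Mettl3/14nKO libraries lay below both wild-type libraries, and the Poisson intervals of the nearest libraries, 12.5 to 29.0 for Mettl3/14nKO replicate 1 and 17.5 to 36.2 for wild-type replicate 1, overlapped. Its log2 fold change of -0.71 (SE 0.32) was the lowest of the 8, at 0.613 of the wild-type level with a 95% interval of 0.377 to 0.996. With edgeR the unadjusted p was 0.0484 and the adjusted p 0.308. Pooled over libraries, 36 fragments in Mettl3/14nKO against 86 in wild-type gave a depth-corrected ratio of 0.610 with an exact binomial interval of 0.402 to 0.910, which covers counting error only. The estimate stayed below 0 without any 1 library, between -0.88 and -0.50, with an adjusted edgeR p of 0.332 or more.

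The ratio of Mettl3 to Mettl14 transcript was steadier per length than in fragments. The deposited count per FPKM differed 2.05-fold between libraries for Mettl3 and 1.04-fold for Mettl14, so the FPKM ratio does not rest on a fixed length. In FPKM, Mettl3 stood at 1.85 and 2.20 times the level of Mettl14 in Mettl3/14nKO, against 1.66 and 1.92 times in wild-type, so the genotypes overlapped. In fragments the ratio of Mettl3 to Mettl14 was 1.25 and 0.75 against 0.625 and 0.870, and Mettl3/14nKO replicate 1 alone had more fragments of Mettl3 than of Mettl14.

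Mettl16, the writer that acts outside the complex, had 49 and 34 fragments in Mettl3/14nKO, against 79 and 94 in wild-type (ENSMUSG00000010554, chr11:74770830-74828525, plus strand). The normalised CPM was 39.8 and 46.1 against 63.3 and 58.0, with no overlap between groups. The log2 fold change was -0.51 (SE 0.23, unadjusted p = 0.0451, adjusted p = 0.298 with edgeR), at 0.703 of the wild-type level with an interval of 0.499 to 0.991, the smallest p among the 8 genes although the labels do not name it as a target. Mat2a, the methionine adenosyltransferase gene whose RNA METTL16 methylates, was looked at for that reason. It had 107 and 74 against 123 and 167 fragments and a log2 fold change of -0.12 (SE 0.17, adjusted p = 0.817 with edgeR).

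Among the adaptors, Wtap encodes the scaffold that brings the METTL3 and METTL14 pair to nuclear speckles. It had 77 and 53 fragments in Mettl3/14nKO, against 103 and 128 in wild-type (in GENCODE M21 at chr17:12966796-12994169, minus strand). In normalised CPM these were 62.5 and 71.9 against 82.5 and 78.9. The groups did not overlap, and edgeR gave a log2 fold change of -0.28 (SE 0.19, adjusted p = 0.556). Zc3h13, a zinc-finger protein gene whose product keeps the complex in the nucleus, was the best counted member with 162 and 113 against 186 and 194 fragments (chr14:75284373-75344426, plus strand). Its normalised CPM of 132 and 153 against 149 and 120 overlapped, with a log2 fold change of 0.08 (SE 0.16, adjusted p = 0.886 with edgeR). With limma on log2(FPKM + 1) the value was -0.15, or 0.06 relative to the limma median of all genes, which was -0.21. The interval of Zc3h13, 0.826-fold to 1.35-fold, was the narrowest of the set together with that of Rbm15b. Cbll1, the gene of the E3 ubiquitin ligase HAKAI, had 49 and 34 against 52 and 63 fragments (chr12:31484829-31499616, minus strand). With edgeR the change was 0.08 on the log2 scale (SE 0.25, adjusted p = 0.927), and the libraries overlapped at 38.8 to 46.1 normalised CPM. The value with limma on log2(FPKM + 1) was -0.09, or 0.12 relative to the limma median of all genes.

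Rbm15 and Rbm15b encode related RNA-binding proteins that recruit the complex to its sites, among them the Xist RNA. Rbm15 (in GENCODE M21 at chr3:107325421-107333673, minus strand) was the member with the highest log2 fold change, 0.30 (SE 0.19, adjusted p = 0.498 with edgeR). It had 102 and 59 fragments in Mettl3/14nKO, against 88 and 101 in wild-type. Its normalised CPM of 82.8 and 80.0 against 70.5 and 62.3 did not overlap, but its FPKM did. With limma on log2(FPKM + 1) the value was 0.04, or 0.24 relative to the limma median of all genes. Rbm15b stood on 2 rows that the table gives the same symbol, the same Entrez gene number and the same locus. Only ENSMUSG00000074102 is in GENCODE M21 (chr9:106880918-106887428, minus strand), and this row had 16 and 10 against 21 and 34 fragments. The larger row, ENSMUSG00000045365, had 96 and 73 against 114 and 146. Their log2 fold changes were -0.52 (SE 0.38, adjusted p = 0.585) and -0.06 (SE 0.18, adjusted p = 0.931) with edgeR when the rows were kept apart, and -0.13 (SE 0.17, adjusted p = 0.807) when summed. The summed normalised CPM was 91.0 and 113 in Mettl3/14nKO, against 108 and 111 in wild-type, which overlapped, and leaving out Mettl3/14nKO replicate 1 the summed estimate was 0.04.

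Neighbouring genes limit how firmly some of these rows can be read. The table gives Mettl3 the locus chr14:52258811-52305128, which it shares with Tox4 and Rab2b, and in GENCODE M21 Mettl3 overlaps Tox4 on the opposite strand over 1561 bases. Tox4 had 149 and 96 against 157 and 161 fragments. Mettl14 shares its deposited locus, chr3:123267496-123385990, with Sec24d, without overlap in GENCODE M21. Rbm15b lies whole inside the span of Manf on the same strand and shares 75 bases with Dcaf1, listed as Vprbp, on the other strand, and Cbll1 overlaps an antisense RNA over 932 bases. The kit was directional, but no source used here says whether counting used strand, so fragments of these overlaps may belong to either gene.

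Per length, Rbm15b and Wtap led and Mettl14 had the lowest mean in both genotypes. By mean FPKM Mettl3 was 3rd of the 8 in wild-type and 5th in Mettl3/14nKO, while Rbm15 was 5th and 3rd. The deposited count per FPKM differed between libraries 2.05-fold for Mettl3, 2.22-fold for Mettl16 and 1.67-fold for Cbll1. The places of these 3 genes thus do not rest on a fixed length. In wild-type islets Rbm15b, its 2 rows summed, was highest at 22.5 and 26.6 FPKM, followed by Wtap at 20.8 in both libraries, and each range was clear of the next. Mettl3 (8.40 and 14.5 FPKM), Zc3h13 (12.0 and 10.6) and Rbm15 (11.0 and 10.7) formed a middle group, where Mettl3 overlapped Zc3h13 and Zc3h13 overlapped Rbm15. Mettl16 (9.57 and 6.50 FPKM), Cbll1 (6.96 and 6.30) and Mettl14 (5.06 and 7.55) were lowest, clear of Rbm15 and each overlapping the next. The range of Mettl16 also overlapped that of Mettl3. In Mettl3/14nKO islets Rbm15b (18.0 and 17.9 FPKM) and Wtap (16.7 and 15.9) again led and were separate from each other. Rbm15 (12.5 and 9.94) overlapped Zc3h13 (10.2 and 9.82), which was clear of Mettl3 (6.95 and 5.86). Cbll1 (4.87 and 7.77), Mettl16 (3.13 and 6.65) and Mettl14 (3.75 and 2.66) followed, each overlapping the next. With the Rbm15b rows kept apart, the larger stood at 15.5 and 16.9 FPKM in wild-type, below Wtap. Among genes with an FPKM above 0, Mettl14 stood at or above 48.2% and 57.9% of genes in the wild-type libraries and 40.8% and 35.0% in Mettl3/14nKO, while Rbm15b stood at or above 84.2 to 89.2% in all 4.

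**Figure D2:**
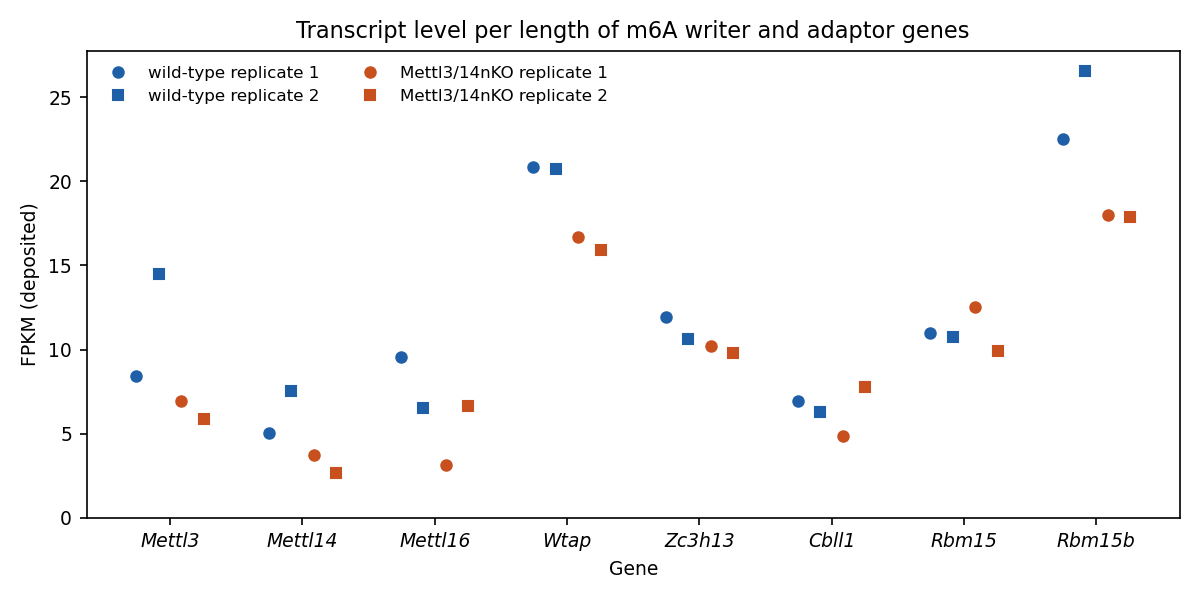
FPKM as deposited (linear axis from 0) of the 8 genes in each library, blue for wild-type and orange for Mettl3/14nKO, circles for replicate 1 and squares for replicate 2, with the 2 rows of Rbm15b summed. Rbm15b and Wtap are highest in every library, and Mettl3, Mettl14, Wtap, Zc3h13 and Rbm15b are below both wild-type libraries in each Mettl3/14nKO library.

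In FPKM more genes of the whole table stood lower in Mettl3/14nKO than in normalised CPM, and fewer stood higher. In FPKM 5 of the 8 members (Mettl3, Mettl14, Wtap, Zc3h13 and Rbm15b) were lower in both Mettl3/14nKO libraries, as were 36.7% of all genes tested (22.9% in normalised CPM), and 0 were higher, against 9.36% of all genes (22.3% in normalised CPM). With limma on log2(FPKM + 1) all genes had a median log2 fold change of -0.21, with 70.8% of genes below 0. That of Mettl3 was -0.71 (SE 0.32, adjusted p = 0.434 with limma), or -0.50 relative to that median, and that of Mettl14 -0.79 (SE 0.33, adjusted p = 0.406), or -0.58 relative to it. For Mettl16 the limma value was -0.66 (SE 0.38, adjusted p = 0.518), and its FPKM overlapped between the groups although its normalised CPM did not.

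For Mettl3, Mettl16 and Cbll1 the FPKM did not follow the counts from library to library. The deposited count divided by FPKM rises with the transcript length that the FPKM was computed on, and it should be the same in every library for a gene with a fixed length. For Zc3h13 it was 15.3 in all 4 libraries and for Rbm15 it was 7.86 to 7.90. For Mettl3 it was 4.18 and 2.04 in Mettl3/14nKO, against 2.34 and 2.71 in wild-type, a span of 2.05-fold that exceeded that of 93.0% of 10920 genes, whose median span was 1.12-fold. Mettl16 spanned 2.22-fold, from 15.2 in Mettl3/14nKO replicate 1 to 6.81 in replicate 2, with 8.11 and 12.1 in wild-type. Cbll1 spanned 1.67-fold, while Mettl14 spanned 1.04-fold, Wtap 1.16-fold and Rbm15b 1.09-fold. In Mettl3/14nKO replicate 1, Mettl3, Mettl16 and Cbll1 each had their highest count per FPKM, and in replicate 2 their lowest. GENCODE M21 lists 15 transcripts for Mettl3, of 330 to 2159 bases, and 6 for Mettl16, of 450 to 12584 bases. The table holds no value per transcript, so which of them the fragments came from was not tested.

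**Figure D3:**
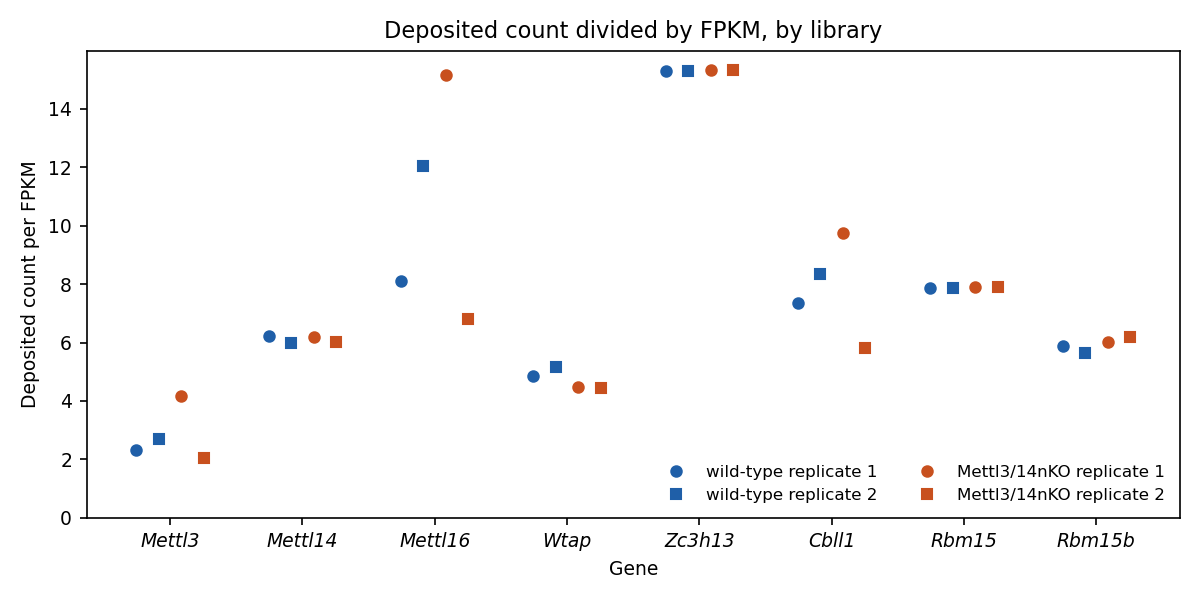
Deposited count divided by FPKM (linear axis from 0) for the 8 genes in each library, blue for wild-type and orange for Mettl3/14nKO, circles for replicate 1 and squares for replicate 2. The 4 points coincide for Zc3h13 and Rbm15, and spread 2.05-fold for Mettl3 and 2.22-fold for Mettl16.

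Of 6 further m6A methyltransferases and cofactors 0 passed the edgeR test (adjusted p of 0.393 or more, and 0 with DESeq2 or limma), and 0 had an unadjusted edgeR p under 0.05, which 15.9% of all genes tested had in either direction. The share of all genes that passed was 3.71% with edgeR, 0.977% with DESeq2 and 0% with limma. The median log2 fold change of the 6 was -0.03. Virma, listed as 1110037F02Rik, is the largest subunit of the writer complex and had 149 and 74 fragments in Mettl3/14nKO against 136 and 174 in wild-type. Its edgeR log2 fold change was 0.05 (SE 0.16), and later values are edgeR log2 fold changes too. With limma on FPKM Virma was at -0.16, or 0.05 relative to the limma median of all genes. Pcif1, which methylates the adenosine beside the cap, had 86 and 55 against 66 and 93 fragments (0.38, SE 0.20), and Zcchc4, which methylates large-subunit ribosomal RNA, 38 and 21 against 28 and 35 (0.44, SE 0.30). Mettl5, the small-subunit ribosomal RNA methyltransferase gene, had 11 and 3 against 12 and 13 fragments (-0.32, SE 0.55), and the gene of its partner, Trmt112, had 28 and 13 against 30 and 34 (-0.12, SE 0.33). Mettl4, which methylates U2 small nuclear RNA, had 10 and 5 against 10 and 23 fragments (-0.57, SE 0.51). The intervals of Mettl4 and Mettl5 were the widest of the list, reaching a fall of 68.9% and 65.0%.

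Of 14 readers 0 passed with edgeR, DESeq2 or limma (edgeR adjusted p of 0.372 or more, 0 at an unadjusted p under 0.05 against 15.9% of all genes tested, median log2 fold change 0.01), and of the 2 erasers 0 passed by the same tests. Of all genes tested, 3.71% passed with edgeR, 0.977% with DESeq2 and 0% with limma. The readers with the smallest p were Igf2bp1, which stabilises marked RNA, with 25 and 20 against 42 and 58 fragments (-0.58, SE 0.30, which turned to 0.06 with limma on FPKM), Hnrnpa2b1 (0.24, SE 0.13), Prrc2a (0.21, SE 0.12) and Ythdf2 (-0.31, SE 0.20), which marks RNA for decay. The eraser genes Fto and Alkbh5 had 124 and 86 against 126 and 157 fragments (0.13, SE 0.17) and 204 and 122 against 212 and 265 (-0.01, SE 0.14). With limma on FPKM Fto was at -0.13, or 0.08 relative to the limma median of all genes. The Alkbh5 interval lay between log2 fold changes of -0.31 and 0.29. Of 9 genes that supply or recycle the methyl donor S-adenosylmethionine, 8 were tested and 0 passed with edgeR, DESeq2 or limma, with 1 at an unadjusted edgeR p under 0.05, beside 15.9% of all genes tested. Slc25a26 was too low to be tested with edgeR. The gene at that level was Ahcy, which clears S-adenosylhomocysteine, with 27 and 18 against 58 and 50 fragments (-0.73, SE 0.31, unadjusted p = 0.0365, adjusted p = 0.269 with edgeR), and its limma value on FPKM was 0.11, opposite in sign. The deposited count per FPKM of Ahcy was 2.34 and 2.56 in Mettl3/14nKO against 5.42 and 4.92 in wild-type. That of Igf2bp1 was 7.64 and 12.8 against 16.2 and 21.0, and the cause was not tested. Ahcyl1 (0.17, SE 0.14) and Mtr (0.33, SE 0.34) had larger p.

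**Figure D4:**
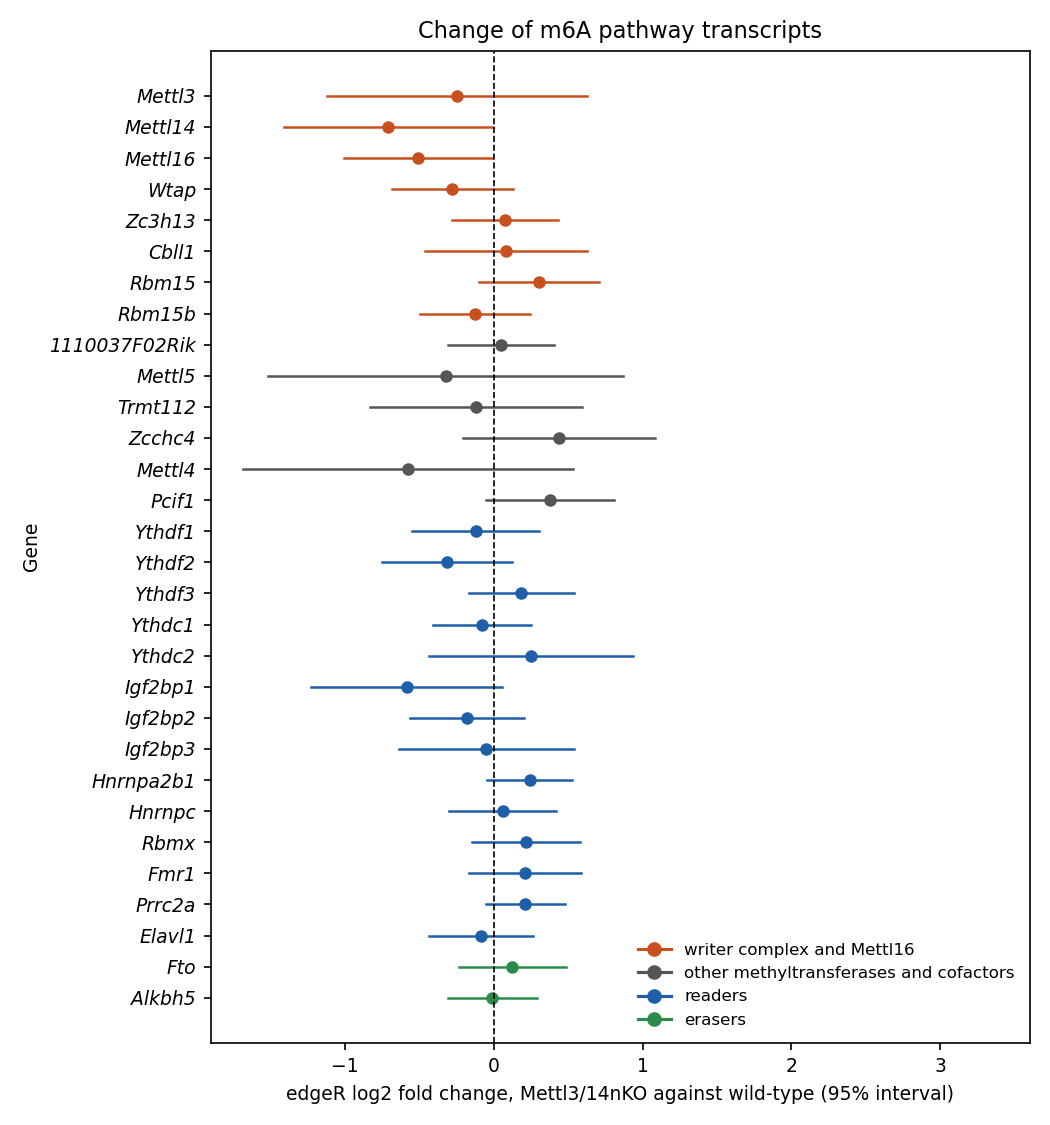
edgeR log2 fold change of Mettl3/14nKO against wild-type (points) with unadjusted 95% intervals (lines) for the writers and adaptors, other methyltransferases, readers and erasers, coloured by group, with a dashed line at 0. Only the intervals of Mettl14 and Mettl16 end below 0, at -0.01 each, and neither gene passed after adjustment.

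The genes most like Mettl3 and Mettl14 across the 4 libraries were found by the distance between centred log2(CPM + 1) values, among tested genes within 2-fold of the mean CPM. For Mettl3 they were Bcl10 (distance 0.06), Atox1 (0.10) and Tmem251 (0.11) of 4806 genes, whose median distance was 1.08. Bcl10 had 25 and 7 fragments in Mettl3/14nKO, against 16 and 38 in wild-type, the same alternation of high and low libraries as Mettl3. For Mettl14 they were Fam57a (0.06), Tsc22d3 (0.07) and Cdh4 (0.07) of 4943 genes, with a median of 0.90. Mettl14 was at 0.70 from Mettl3, the 596th nearest gene to it, and Mettl3 the 1338th nearest to Mettl14. With 4 libraries and at most 63 fragments of these genes in any of them, the likeness is a description of these libraries.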

How the data were processed

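The authors deposited estimated counts and FPKM for each gene, with both named in the header. Cufflinks, Cuffdiff, HISAT2 2.0.4, cutadapt 1.9.3 and the build mm10 appear in the submitters' processing notes. No source used here gives the annotation, any filter or the strand setting. Per the labels, ribosomal RNA was removed and a directional kit was used.

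The deposited counts are not whole. They fall on multiples of a step of 0.835 to 1.33 that differs by library, to within 0.01 for 92.3 to 93.2% of nonzero values. Counts were divided by that step, rounded, and summed over rows of a symbol. The main test was edgeR 4.0.16 in R 4.3.3 (quasi-likelihood, TMM, filterByExpr, two-sided, Benjamini-Hochberg over 10956 genes, threshold 0.05), with DESeq2 1.42.0 and limma 3.58.1 on log2(FPKM + 1), mean FPKM of at least 1, as alternatives. An exact permutation test of 2 against 2 cannot go below p = 0.333 and was not used. The scripts were tested on simulated fragments.

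Members, lists and tests were chosen with earlier results of these data known. Named genes were the 8 members, every further methyltransferase, both erasers, up to 4 readers and methyl donor genes by smallest p, and 3 genes each most like Mettl3 and Mettl14; Mat2a, Tox4 and the marker genes named were added after their values were seen. Some genes of these lists are not reported here. The lists were further methyltransferases, readers, erasers, methyl donor supply, and endocrine, endothelial, leukocyte, mesenchymal, acinar, ductal, erythroid and Schwann markers. Annotation and sequences came from GENCODE M21.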

Additional observations from a re-analysis of the deposited data

How the results depend on the processing

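Of the 8 members, 0 passed in any of the 14 alternatives fitted, and 0 tested members of the 4 other pathway lists. Over all genes, edgeR called 230 higher and 176 lower. Without a filter on low counts it called 469 and 388, DESeq2 called 92 and 50, and limma called 0 and 0 with a pseudocount of 1, with 0.1 and without a filter (1477, 1427 and 1767 at an unadjusted p under 0.05). Leaving out 1 library gave 135 to 390 higher and 131 to 284 lower, with 135 higher without Mettl3/14nKO replicate 1 and 390 higher and 284 lower without Mettl3/14nKO replicate 2. With 1 library left out, the log2 fold change of Mettl3 ran from -0.91 to 0.26, of Zc3h13 from -0.076 to 0.24, of Cbll1 from -0.012 to 0.20 and of Rbm15b from -0.27 to 0.037. Mettl3 was above 0 when replicate 2 of Mettl3/14nKO (0.084) or of wild-type (0.26) was left out. With limma Zc3h13 was at -0.15, or -0.17 with a pseudocount of 0.1 and -0.15 without a filter, and Cbll1 at -0.088, -0.10 and -0.088. With a pseudocount of 1 the limma median of all genes was -0.21. Relative to that median Zc3h13 was at 0.055 and Cbll1 at 0.12, above 0 as with edgeR. The cause was not tested. Mettl14, Mettl16, Wtap and Rbm15 kept their direction in all 14. A replicate block called 217 and 168 genes and gave Mettl3 -0.22 and Mettl14 -0.68; same-numbered libraries did not deviate together (correlation 0.02 over 10956 genes), so the numbers were not taken as pairs. Depth limits Mettl3 and Mettl14 most, with 9 to 54 fragments in a library.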
